A study of Mus musculus with 6 samples.

Results

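The mitochondrial ribosomal proteins are the proteins of the ribosome that works inside mitochondria. They were chosen by gene symbol: every gene of the deposited expression table named Mrpl or Mrps with a number and at most 1 further letter was taken. This gave 78 of the 18388 genes in the table, 49 with an Mrpl symbol (large subunit) and 29 with an Mrps symbol (small subunit). The symbol is the sole criterion, but the family was selected for description after FPKM (fragments scaled for transcript length and for the library's mapped total) of the same PFOA and DMSO libraries had been looked at. Its differences between these groups are therefore given as a description, and nothing is read from how many members differ. All 78 members had a mean of at least 1 FPKM over the 6 libraries, the minimum used for the comparison, as did 11876 genes of the table.

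The study exposed morula-like aggregates, clusters that stand in for the mouse embryo at compaction, to PFOA or to vehicle and sequenced their polyadenylated RNA. The PFOA group holds 3 libraries of aggregates treated with perfluorooctanoic acid, a persistent fluorinated surfactant. The DMSO group holds 3 libraries of aggregates that received the vehicle. Both groups started from mouse expanded pluripotent stem cells, a cultured stem cell state, kept first in N2B27LCDM medium and then in an induction medium, at 37 °C with 5% CO2 and 20% O2. Neither the PFOA dose, nor the exposure time, nor the mouse strain of the cells is given in the sources used here. The labels also do not say whether the 3 libraries of a group came from separate cultures. If they did not, the p-values measure technical spread alone. The aggregates are bulk samples, in which fewer cells of a type and less RNA per cell cannot be told apart.

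Mitochondria keep a small genome that encodes core subunits of the respiratory chain and of ATP synthase, and these are translated on the mitochondrial ribosome. Its ribosomal RNAs come from the mitochondrial genome, whereas all of its proteins are encoded in the nucleus, made in the cytosol and imported. Some of the proteins have counterparts in bacterial ribosomes, and others were gained on the way to animals. The small subunit reads the mRNA, and the large subunit forms the peptide bond and delivers the new chain to the inner membrane. In early embryos mitochondria have few cristae, and they mature as development goes on.

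Transcripts of the family stood slightly lower in PFOA libraries. The mean was lower in PFOA for 76 of 78 members (Mrpl39 at a log2 fold change of −0.00017), against 52.4% of all 11876 tested genes. With every library rescaled to the same FPKM total these were 54 members and 27.5% of tested genes. The median log2 fold change of the members was −0.12 (8.1% lower in PFOA), against −0.007 for all tested genes. The members' log2 fold changes ran from −0.37 to 0.062, with an SD of 0.081 between members. All values are PFOA minus DMSO on the log2(FPKM + 1) scale. No member passed limma's test with Benjamini-Hochberg adjustment over all tested genes at 0.05, and the smallest adjusted p of a member was 0.110. Of all tested genes, 1 passed, that is 0.00842% of those tested. At an unadjusted limma p under 0.05, 39 members were lower, where 12.5% of all tested genes were, and 0 were higher, where 8.56% were. After rescaling to the same total, 12 members were lower at this threshold, beside 4.21% of tested genes, and 2 were higher, beside 2506 of 11876 tested genes. Without DMSO 2, 24 members were lower at it, beside 8.28% of tested genes. In 33 members each PFOA library lay below each DMSO library, a pattern seen in 13.7% of tested genes. The opposite pattern was seen in 0 members and in 13.5% of tested genes.

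**Figure D1:**
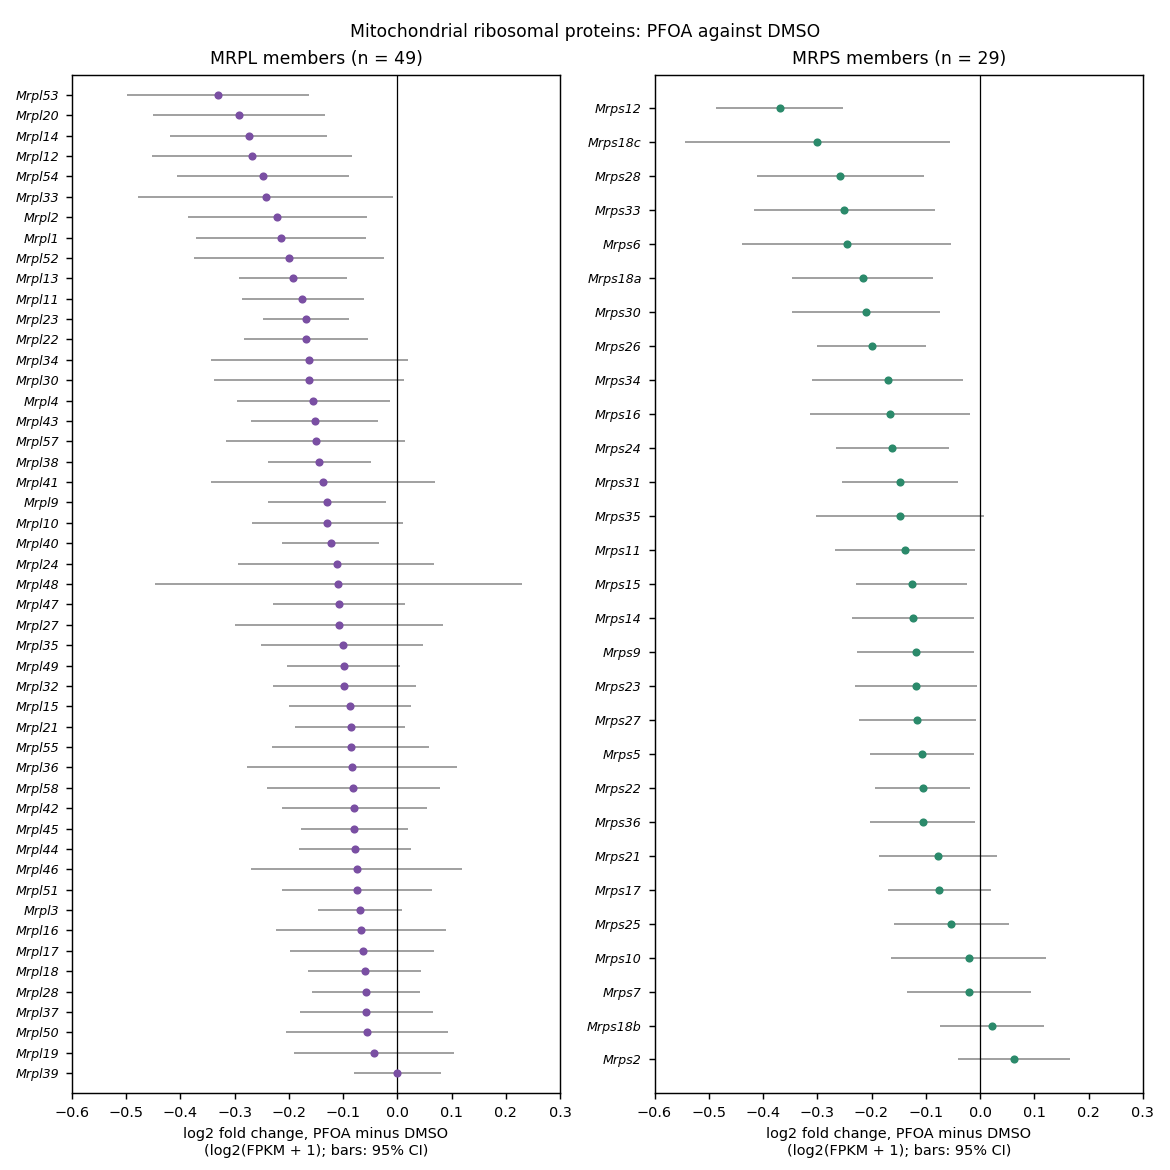
Log2 fold change (PFOA minus DMSO, log2(FPKM + 1) scale) of each of the 49 Mrpl and 29 Mrps genes, from the lowest at the top. Points are limma estimates and bars are 95% confidence intervals from 3 libraries per group; Mrps18b and Mrps2 are the 2 members with an estimate above 0.

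The deposited values set the frame for these differences. The sum of all FPKM in a library was 585739, 630644 and 623160 in PFOA 1 to 3, against 655153, 657239 and 641975 in DMSO 1 to 3, so the PFOA sums were the lower. The median of all tested genes stayed within 0.006 (log2) of the DMSO mean in every library. The members summed to 4345, 4721 and 4705 FPKM in PFOA and to 5071, 5128 and 4929 FPKM in DMSO. As a share of all FPKM this was 0.742%, 0.749% and 0.755% in PFOA, against 0.774%, 0.780% and 0.768% in DMSO. With every library rescaled to the same total, a step added after the data had been seen, the members' median was −0.034, while the median of all tested genes moved to 0.071. The number of genes above 0 was between 16823 and 16913 in the 6 libraries, and the sequencing depth is unknown. Pluripotency markers were found in every library, from Tfcp2l1 (22.4 to 29.3 FPKM) to Dppa5a (1672 to 2304 FPKM). Pou5f1 was at 849 to 1018 FPKM and Nanog at 262 to 282 FPKM. Trophectoderm markers other than the epithelial keratins Krt8 and Krt18 (196 to 294 FPKM) were lower, with Cdx2 at 5.90 to 8.40 FPKM, and the primitive endoderm marker Gata4 was at 1.6 to 1.86 FPKM. The 7 markers of feeder fibroblasts summed to 17.6, 19.2 and 19.4 FPKM in PFOA, against 24, 23 and 19.5 FPKM in DMSO, and none was at 0. Their part in the members' values was not tested.

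Sequences upstream of 4 members are shown to set members with low fold changes beside one near 0: Mrps12 and Mrps18c had the lowest fold changes of the small subunit, Mrpl12 belongs to the lowest role group of the large subunit, and Mrps18b had a fold change near 0. Each is the 250 bases before the annotated start, 5′ to 3′ on the gene's strand, from RefSeq on GRCm38.p6, an older build than the GRCm39 of the deposited values. The windows are chr7:28741822-28742071 (minus strand) for Mrps12, chr5:100798509-100798758 (plus strand) for Mrps18c, chr11:120484387-120484636 (plus strand) for Mrpl12 and chr17:35916441-35916690 (minus strand) for Mrps18b. Capitals mark matches on either strand to letters associated with NRF1 (GCGCANGCG), ETS factors (CCGGAAG), YY1 (AAGATGGCG) or MYC-MAX E-boxes (CACGTG).
Mrps12: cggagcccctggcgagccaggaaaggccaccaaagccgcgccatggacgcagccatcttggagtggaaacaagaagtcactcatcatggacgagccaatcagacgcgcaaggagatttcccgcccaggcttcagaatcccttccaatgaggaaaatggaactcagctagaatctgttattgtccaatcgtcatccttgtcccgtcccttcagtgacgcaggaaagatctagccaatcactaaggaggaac
Mrps18c: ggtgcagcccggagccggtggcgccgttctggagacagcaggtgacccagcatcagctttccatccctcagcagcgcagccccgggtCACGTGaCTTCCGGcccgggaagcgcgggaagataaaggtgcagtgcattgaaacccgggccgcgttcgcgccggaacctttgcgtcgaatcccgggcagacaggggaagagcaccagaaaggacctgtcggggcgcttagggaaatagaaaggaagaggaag
Mrpl12: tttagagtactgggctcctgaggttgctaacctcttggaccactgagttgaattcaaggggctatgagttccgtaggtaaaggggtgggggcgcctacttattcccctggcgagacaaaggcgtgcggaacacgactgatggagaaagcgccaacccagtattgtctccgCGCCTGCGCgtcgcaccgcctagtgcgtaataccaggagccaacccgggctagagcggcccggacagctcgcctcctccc
Mrps18b: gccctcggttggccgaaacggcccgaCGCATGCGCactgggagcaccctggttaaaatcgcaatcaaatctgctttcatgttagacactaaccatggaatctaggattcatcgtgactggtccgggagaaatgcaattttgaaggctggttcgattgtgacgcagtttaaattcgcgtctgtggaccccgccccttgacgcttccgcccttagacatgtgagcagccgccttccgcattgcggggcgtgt
Within the 250 bases shown, Mrps12 holds none of these letters. Mrps18c has the E-box and ETS letters 1 base apart, and Mrpl12 and Mrps18b each hold the NRF1 letters. A RefSeq window of 300 bases, 250 before and 50 after the start, was found for 69 of 78 members. In the longer window Mrps12 and Mrps18b each have 1 match to the ETS letters, so both count below as members with them. In these windows the NRF1 letters occurred in 23.2% of members and 14.5% of 9561 tested genes, the ETS letters in 36.2% and 19.4%, the YY1 letters in 11.6% and 3.4%, and the E-box in 7.2% and 10.6%. Where a motif overlapped another, each was counted. The median log2 fold change was −0.12 for the 16 members with the NRF1 letters and −0.11 for the 53 without. It was −0.15 for the 25 with the ETS letters and −0.11 for the 44 without, and −0.11 for the 8 with the YY1 letters and −0.12 for the 61 without. The 5 members with an E-box (Mrpl2, Mrpl20, Mrpl36, Mrpl37 and Mrps18c) had a median of −0.22, against −0.11 for the 64 without. These are descriptions of the windows, and no difference between them was tested.

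Small-subunit proteins that shape the decoding centre and the mRNA path differed widely among themselves. Mrps12, the counterpart of the bacterial decoding-centre protein S12, had the lowest log2 fold change of the family. It was 69.4, 73.7 and 70.97 FPKM in PFOA 1 to 3, against 98.6, 92.4 and 86.7 FPKM in DMSO 1 to 3. Each PFOA library lay below each DMSO library, and DMSO 3 was the nearest. The log2 fold change was −0.37 (SE 0.051; 22.6% lower; limma with Benjamini-Hochberg adjusted p = 0.110, with 0.0146 to 0.856 over the alternatives tried). Mrps2, the counterpart of bacterial S2 near the mRNA exit, stood at the other end of the family. It had 74.5, 73.8 and 80.9 FPKM in PFOA and 74.98, 73.4 and 70.9 FPKM in DMSO, so the groups overlapped and only PFOA 3 was set apart from the rest. Its log2 fold change was 0.062 (95% confidence interval −0.041 to 0.17). Mrps7, a protein of the subunit's head, had 27.9, 30.3 and 29.8 FPKM in PFOA and 28.2, 30.8 and 30.3 FPKM in DMSO, which overlap closely. Mrps5, which lines the path of the mRNA, averaged 127 ± 3.22 FPKM in PFOA and 137 ± 5.62 FPKM in DMSO (SD, n = 3 each). Of the 6 members of this group 5 were lower in PFOA (4 after rescaling to the same total), with a median log2 fold change of −0.12.

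The 3 Mrps18 genes are paralogs of the gene for bacterial S18, and their products occupy different places. Mrps18c is in the small subunit at the S18 position. It had 71.1, 100.1 and 92.7 FPKM in PFOA and 107.9, 107.8 and 106.5 FPKM in DMSO. All PFOA libraries were below the narrow DMSO range, PFOA 1 by the most. The log2 fold change was −0.30 (SE 0.107), and −0.16 without PFOA 1. Mrps18b, another small-subunit protein, had 137.9, 140.9 and 144.8 FPKM in PFOA and 141.4, 143.4 and 132.6 FPKM in DMSO. The groups overlapped, and its log2 fold change was 0.022 (95% confidence interval −0.074 to 0.12). Mrps18a, which structures place in the large subunit despite its symbol, averaged 47.6 ± 3.02 FPKM in PFOA and 55.4 ± 3.07 FPKM in DMSO (SD, n = 3 each; log2 fold change −0.22), with the groups apart. Mrps30, also placed in the large subunit by structures, averaged 50.5 ± 3.75 FPKM in PFOA and 58.5 ± 2.85 FPKM in DMSO (log2 fold change −0.21). The paralogs were thus at −0.30, −0.22 and 0.022 in the same libraries; the differences between them were not tested. For Mrps18b, 27.2% of its 50-nt words occur in transcripts of other genes and 30.5% of its exon bases overlap a gene on the other strand. For Mrps18c, 23.2% of exon bases overlap a gene on its own strand, so both depend on how reads were assigned.

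**Figure D2:**
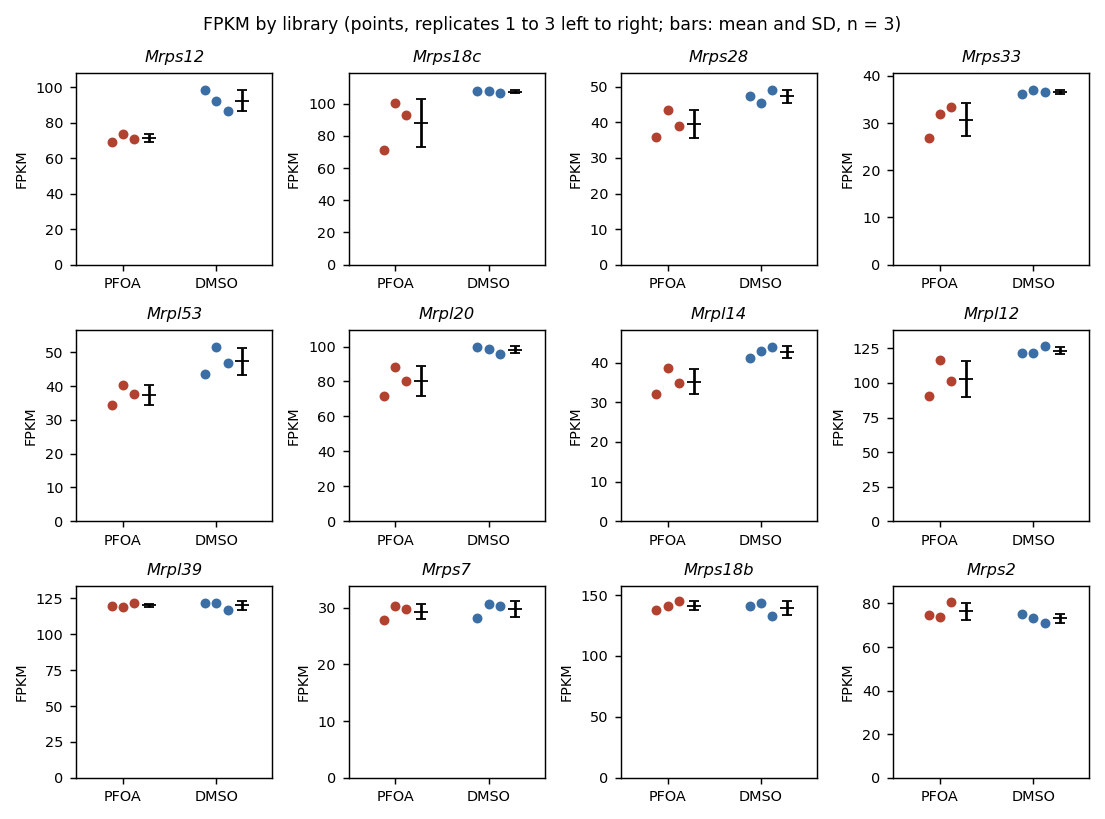
FPKM in each PFOA library (left, red) and each DMSO library (right, blue) for 8 members with low fold changes and, in the bottom row, 4 members with fold changes near 0. Black bars are the mean and SD of 3 libraries and the axes start at 0; PFOA 1 is the lowest PFOA library in all panels of the top 2 rows.

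Other small-subunit proteins with low fold changes were Mrps28, Mrps33 and Mrps6. Mrps28, a protein of the subunit's body, had 35.8, 43.6 and 39.1 FPKM in PFOA, against 47.3, 45.5 and 49.2 FPKM in DMSO, without overlap (log2 fold change −0.26, SE 0.068). Mrps33, a protein with no listed bacterial counterpart, had 26.8, 31.96 and 33.4 FPKM in PFOA, against 36.1, 37.0 and 36.7 FPKM in DMSO, again without overlap (−0.25, SE 0.073, and −0.16 without PFOA 1). Mrps6, the counterpart of bacterial S6 and the usual neighbour of S18, had 27.8, 31.8 and 35.2 FPKM in PFOA, against 38.6, 39.5 and 34.5 FPKM in DMSO. Here PFOA 3 lay above DMSO 3, so the groups overlapped (−0.25, SE 0.084, and −0.16 without PFOA 1). Of its 50-nt words 32.2% occur in transcripts of other genes. Mrps36, which is now known mainly as a subunit of the 2-oxoglutarate dehydrogenase complex, averaged 43.7 ± 2.03 FPKM in PFOA and 47.1 ± 0.362 FPKM in DMSO (SD, n = 3 each; log2 fold change −0.11, and −0.068 without PFOA 1), with 33.7% of its words shared. The small-subunit genes with the lowest levels were Mrps25, at 9.52, 9.66 and 9.64 FPKM in PFOA and 9.90, 10.35 and 9.77 FPKM in DMSO, and Mrps14, at 19.3 ± 1.00 FPKM in PFOA and 21.1 ± 0.653 FPKM in DMSO (SD, n = 3 each). For Mrps25, 69.8% of exon bases overlap Nr2c2 on the other strand, so its level is uncertain.

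In the large subunit, the proteins of the stalk that receives translation factors had the lowest median of the role groups, −0.22, and all 4 were lower in PFOA, also after rescaling to the same total. Mrpl12, the stalk protein that recruits the factors, had 90.4, 116.9 and 101.3 FPKM in PFOA, against 122.0, 121.8 and 126.4 FPKM in DMSO. The groups did not overlap, and PFOA 1 lay farthest from the DMSO libraries (log2 fold change −0.27, SE 0.081, and −0.18 without PFOA 1). Mrpl53, which sits near the base of the stalk, had 34.4, 40.4 and 37.7 FPKM in PFOA, against 43.6, 51.6 and 46.9 FPKM in DMSO (−0.33, SE 0.073). These groups did not overlap either, but all of the 50-nt words of Mrpl53 (100%) also occur in transcripts of an annotated neighbour, Gm42688, so its reads are uncertain. Mrpl11, which binds the ribosomal RNA at the stalk base, had 19.2, 19.7 and 20.98 FPKM in PFOA, against 21.7, 22.8 and 23.4 FPKM in DMSO (−0.18, SE 0.049). Mrpl10, which anchors Mrpl12, had 58.2, 58.6 and 61.2 FPKM in PFOA, against 70.5, 65.7 and 59.2 FPKM in DMSO (−0.13, SE 0.061). DMSO 3 lay inside the PFOA range for Mrpl10, the one stalk gene with overlapping groups.

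Among the other large-subunit members, Mrpl20, Mrpl14 and Mrpl54 had the lowest fold changes. Mrpl20, whose bacterial counterpart binds ribosomal RNA early in assembly, had 71.5, 88.5 and 80.6 FPKM in PFOA, against 99.6, 98.8 and 95.8 FPKM in DMSO (log2 fold change −0.29, SE 0.069). Mrpl14, at the face that meets the small subunit and the docking site of the assembly factor Malsu1, had 32.2, 38.6 and 34.9 FPKM in PFOA, against 41.1, 43.0 and 43.9 FPKM in DMSO (−0.27, SE 0.063). Mrpl54 had 60.9, 73.8 and 62.0 FPKM in PFOA, against 79.7, 75.6 and 77.9 FPKM in DMSO (−0.25, SE 0.069). None of these 3 had overlapping groups, and PFOA 2 was the PFOA library nearest to DMSO in each. Leaving PFOA 2 out took Mrpl54, Mrpl20, Mrpl14, Mrps12 and Mrpl12 past the adjusted threshold, when 94 genes of the table passed, and leaving out DMSO 3 took Mrps12 past it, when 52 passed.

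Around the peptidyl transferase centre all 5 members were lower (3 after rescaling to the same total), with a median of −0.11. In the central protuberance, which meets the head of the small subunit, all 6 were lower (3 after rescaling), with a median of −0.095. One of these is Mrpl58, a peptidyl-tRNA hydrolase that also frees stalled ribosomes, at 38.4 ± 0.934 FPKM in PFOA and 40.8 ± 4.33 FPKM in DMSO (SD, n = 3 each). Mrpl18, which binds the central protuberance RNA in bacteria, was at 130 ± 7.21 FPKM in PFOA and 135 ± 2.10 FPKM in DMSO (SD, n = 3 each). Around the exit tunnel all 7 were lower (3 after rescaling, 6 under quantile normalization), with the median nearest to 0 of the role groups (−0.079). Mrpl45, which anchors the ribosome to the inner membrane, averaged 60.9 ± 1.85 FPKM in PFOA and 64.4 ± 2.75 FPKM in DMSO (SD, n = 3 each), with overlapping groups. Mrpl39, a relative of threonyl-tRNA synthetases, had 119.7, 119.2 and 121.5 FPKM in PFOA and 121.9, 121.9 and 116.6 FPKM in DMSO. Its log2 fold change was −0.00017 (95% confidence interval −0.080 to 0.080), so its direction is not defined. These groups of 4 to 7 members were set against each other without a test.

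Levels ranged widely over the family. The mean over all libraries was highest for Mrpl42 and lowest for Mrpl19, at 282 and 8.87 FPKM, with a median of 51.5 FPKM over the members. FPKM divides by transcript length, but the lengths used for the deposited values are unknown. The order of levels between genes is therefore uncertain. In the annotation used here the longest transcripts of Mrpl42 and Mrpl19 had 666 and 5000 nt. Mrpl42, a protein with no listed bacterial counterpart, had 256.8, 270.9 and 295.5 FPKM in PFOA and 301.3, 291.8 and 275.5 FPKM in DMSO, with overlapping groups (log2 fold change −0.079, and −0.032 without PFOA 1). Mrpl19, the counterpart of bacterial L19, had 7.90, 9.08 and 9.21 FPKM in PFOA and 9.30, 9.04 and 8.68 FPKM in DMSO. Its groups overlapped, and its log2 fold change of −0.043 was 0.020 without PFOA 1. Of its exon bases 36.0% overlap Gcfc2 on the other strand. Mrpl57 was also low, at 8.87 ± 0.681 FPKM in PFOA and 9.95 ± 0.759 FPKM in DMSO (SD, n = 3 each; log2 fold change −0.15, and −0.092 without PFOA 1). Mrpl50 was at 29.5 ± 2.16 FPKM in PFOA and 30.7 ± 2.10 FPKM in DMSO (SD, n = 3 each; log2 fold change −0.056, and −0.005 without PFOA 1).

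The large and small subunits were set side by side by symbol. All 49 Mrpl genes and 27 of 29 Mrps genes were lower in PFOA, with median log2 fold changes of −0.11 and −0.13. The 49 include Mrpl39 at −0.00017, whose direction is not defined. After rescaling to the same total 32 Mrpl and 22 Mrps genes were lower, with medians of −0.026 and −0.04. At an unadjusted limma p under 0.05 there were 18 of 49 Mrpl genes (36.7%) and 21 of 29 Mrps genes (72.4%). All of these were lower, as were 12.5% of all tested genes. Without PFOA 1, 16 Mrpl and 12 Mrps genes were lower at this threshold, beside 9.16% of tested genes. After rescaling to the same total, 5 Mrpl and 7 Mrps genes were lower, beside 4.21%. Then 0 Mrpl and 2 Mrps genes were higher, beside 2506 of 11876 tested genes. The difference between these shares was not tested. The Mrpl median minus the Mrps median was 0.018, and 0.031 under quantile normalization. The same gap within single libraries, relative to the DMSO mean, was −0.015, 0.019 and 0.004 in PFOA 1 to 3 and −0.020, −0.002 and 0.011 in DMSO 1 to 3, so the groups overlapped. Counting Mrps18a and Mrps30 with the large subunit gave 51 genes with a median of −0.11 and 27 with a median of −0.12. The 44 members with a bacterial counterpart had a median of −0.13 (43 lower) and the other 34 members one of −0.12 (33 lower). Of the 16 members with at least 20% of their words or exon bases shared with other genes, 15 were lower (median −0.13), as were 61 of the other 62 (median −0.12).

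The difference was not even over the PFOA libraries. Relative to the DMSO mean, the median of the 78 members was −0.20, −0.093 and −0.086 in PFOA 1 to 3 and −0.001, 0.017 and −0.027 in DMSO 1 to 3. All PFOA medians lay below all DMSO medians, and PFOA 1 stood apart from the other PFOA libraries. It had the lowest value of the 6 libraries for 60 of 78 members. PFOA 1 also had the lowest FPKM sum. With every library rescaled to the same total, the members' medians were −0.046, −0.047 and −0.023 in PFOA 1 to 3. They were −0.009, 0.004 and −0.006 in DMSO 1 to 3, and PFOA 1 then lay beside PFOA 2. The part of the FPKM sum in the result was not tested. Without PFOA 1, 69 members were lower, with a median of −0.092, and 28 were lower at an unadjusted limma p under 0.05. Of all tested genes 52.3% were lower in that fit, and 9.16% at that threshold. Members below their DMSO mean numbered 77, 67 and 63 in PFOA 1 to 3 and 39, 21 and 52 in DMSO 1 to 3. With DMSO 3 as the sole control, 67 members were lower, with a median of −0.10.

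**Figure D3:**
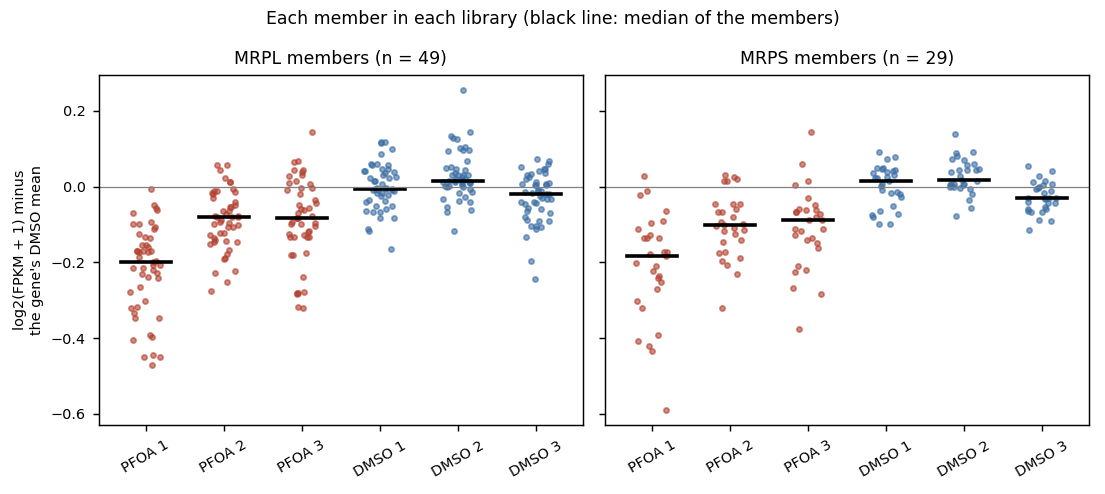
Each member's log2(FPKM + 1) minus its DMSO mean in each PFOA library (left, red) and DMSO library (right, blue), for the 49 Mrpl and 29 Mrps genes. Black lines are medians over the members of a panel; for Mrpl genes they are −0.20, −0.081 and −0.084 in PFOA 1 to 3 and −0.005, 0.016 and −0.019 in DMSO 1 to 3.

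Transcript length moved with the fold change. The longest coding transcript of the members had a median length of 1328 nt, against 3038 nt for all tested genes. The 24 members under 1000 nt were all lower (median −0.17), and so were 85.3% of the 709 other genes of that length (median −0.16). From 1000 to under 2000 nt, 28 of 29 members were lower (median −0.12), beside 81.6% of 2392 other genes (median −0.091). By this longest-transcript length, the members and the other genes stood farther apart among longer transcripts. From 2000 to under 4000 nt, 15 of 16 members were lower (median −0.099), against 56.9% of 4706 other genes (median −0.013). At 4000 nt or more all 9 members were lower (median −0.087), against 22.0% of 3842 other genes (median 0.066). By the median length of a gene's coding transcripts, 35 of 36 members under 1000 nt were lower (median −0.17), against 71.8% of 2265 other genes (median −0.074). From 1000 to under 2000 nt by that length, the median was −0.11 for 24 members and −0.048 for other genes. From 2000 to under 4000 nt it was −0.10 for 15 members and 0.01 for other genes. At 4000 nt or more it was −0.053 for only 3 members and 0.076 for other genes. No difference within a length class was tested. Genes share these libraries and are not independent. Across them the rank correlation (Spearman's rho) of longest-transcript length with fold change was 0.40 over 78 members and 0.59 over 11727 tested genes.

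Removing a trend on the median transcript length from each library left the members at a median of −0.091, with 70 of 78 lower. Removing the trend on the longest transcript, a step added after the data had been seen, left them at a median of −0.047, with 55 of 78 lower. After the removal of the longest-transcript trend the library medians were −0.052, −0.026 and −0.028 in PFOA 1 to 3 and −0.005, 0.013 and −0.005 in DMSO 1 to 3, so the groups stayed apart. An unadjusted limma p under 0.05 was left for 15 members that were lower, beside 6.9% of tested genes, and 3 that were higher, beside 758 of 11876 tested genes. The lowest members were then Mrps26 at −0.23, Mrpl1 and Mrps12 at −0.22 and Mrps30 at −0.21, named after their values were seen. Mrpl53 and Mrpl12 were at −0.16, Mrps18c at −0.14, Mrpl20 at −0.13 and Mrps33 at −0.12, and Mrps28 (−0.096), Mrpl14 (−0.095), Mrps6 (−0.092) and Mrpl54 (−0.063) were nearer to 0, while Mrpl42 (0.097), Mrps36 (0.065), Mrpl18 (0.058), Mrpl39 (0.042) and Mrps7 (0.041) had moved above 0. The 4 stalk proteins kept a median of −0.16. How much of the difference in the deposited values is due to length was not tested.

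**Figure D4:**
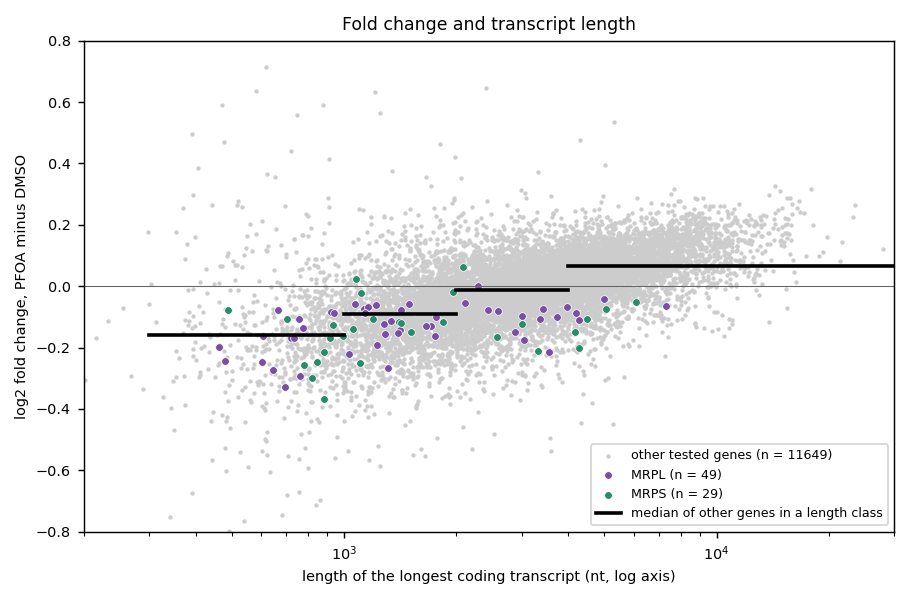
Log2 fold change (PFOA minus DMSO) against the length of the longest coding transcript (nt, log axis) for Mrpl genes (purple), Mrps genes (green) and 11649 other tested genes (grey); 28 genes lie outside the axes. Black lines are medians of the other genes in 4 length classes, from −0.16 under 1000 nt to 0.066 at 4000 nt or more.

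Several members share a start region with a gene on the other strand. In the GENCODE annotation of GRCm38, 18 of 78 members (23.1%) had a protein-coding gene on the other strand starting within 1000 nt upstream. The same held for 10.7% of 11594 tested protein-coding genes. Pairs whose starts overlap were not counted, such as Mrps11 and Mrpl46, which overlap each other in 8.0% and 12.2% of their exon bases. These 18 members had a median log2 fold change of −0.13, with 17 lower. Of their partners 17 were tested; 6 were lower and 11 higher, with a median of 0.014. Mrps12 starts 172 nt from Sars2, which encodes the mitochondrial seryl-tRNA synthetase. Sars2 had 28.2, 27.9 and 32.4 FPKM in PFOA and 30.7, 28 and 28.8 FPKM in DMSO, with overlapping groups and a log2 fold change of 0.014. Mrps18c starts 29 nt from Helq, a DNA helicase gene with a log2 fold change of 0.002. Mrps18b starts 45 nt from Ppp1r10, a protein phosphatase regulator at 0.12, and Mrpl40 (−0.12) starts 175 nt from the histone chaperone gene Hira at 0.13. The lower partners included Apba3 (−0.14, beside Mrpl54 at −0.25), Mitd1 (−0.18, beside Mrpl30 at −0.16) and the ribosomal fusion gene Fau (−0.17, beside Mrpl49 at −0.099). The partners' longest transcripts had a median of 2911 nt, against 1603 nt for these members, so length moved with this contrast too, and its part was not tested.

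Subunits of the mitochondrial ribosome that carry other names showed low and near-zero values alike. Chchd1, a small-subunit protein, had 45.6, 51.1 and 52.3 FPKM in PFOA, against 61.8, 71.4 and 62.0 FPKM in DMSO, without overlap (log2 fold change −0.38, SE 0.070, limma adjusted p = 0.110). Aurkaip1, of the small subunit, had 57.3, 69.2 and 68.6 FPKM in PFOA, against 78.1, 78.5 and 77.6 FPKM in DMSO (−0.27, SE 0.068). Gadd45gip1, of the large subunit, had 27.5, 30.8 and 31.6 FPKM in PFOA, against 37.9, 36.8 and 33.8 FPKM in DMSO (−0.27, SE 0.062). Neither of these overlapped between groups. The small-subunit GTP-binding protein Dap3 averaged 65.5 ± 2.85 FPKM in PFOA and 67.8 ± 1.00 FPKM in DMSO, and the pentatricopeptide protein Ptcd3 averaged 70.6 ± 3.38 FPKM in PFOA and 68.6 ± 1.43 FPKM in DMSO (SD, n = 3 each), both with overlapping groups.

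The genes that build the mitochondrial ribosome or work with it lay on both sides of 0, and no list was tested against the members. Of 26 assembly and rRNA modification factors 19 were lower, with a median of −0.087. At an unadjusted limma p under 0.05 there were 8 lower and 1 higher, beside 12.5% and 8.56% of all tested genes. After rescaling to the same total there were 1 lower and 4 higher, beside 4.21% and 2506 of 11876 tested genes. Malsu1, which docks on Mrpl14 and keeps the subunits from joining early, had 22.2, 29.3 and 26.5 FPKM in PFOA, against 31.3, 32.3 and 33.1 FPKM in DMSO (−0.31, SE 0.085, and −0.20 without PFOA 1). Mterf3, a regulator of mitochondrial transcription and ribosome assembly, was at 23.2 ± 0.816 FPKM in PFOA and 26.4 ± 0.704 FPKM in DMSO (SD, n = 3 each; −0.18). Of 15 translation factors 8 were lower, with a median of −0.025. The elongation factor Tsfm was at −0.15 and Lrpprc, which protects mitochondrial mRNAs, at 0.10. Of 20 mitochondrial aminoacyl-tRNA synthetases and tRNA amidation subunits 10 were lower, with a median of 0.00034. At an unadjusted limma p under 0.05, 0 were lower and 2 higher, beside 12.5% and 8.56% of all tested genes. The 2 higher genes were Lars2 (0.14) and Iars2 (0.11). Of 17 genes of mitochondrial transcription and mRNA maintenance 12 were lower, with a median of −0.021. The lowest unadjusted p-values there belonged to Hsd17b10, a subunit of mitochondrial RNase P, at −0.21, and to Slirp, the partner of Lrpprc, at −0.27; without PFOA 1 they were at −0.13 and −0.14. None of these genes passed the adjusted threshold. These directions depended on scaling: with every library rescaled to the same total, 13 of the assembly factors, 5 of the translation factors, 2 of the synthetases and 5 of the transcription and maintenance genes were lower, with medians of −0.005, 0.055, 0.080 and 0.061.

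**Figure D5:**
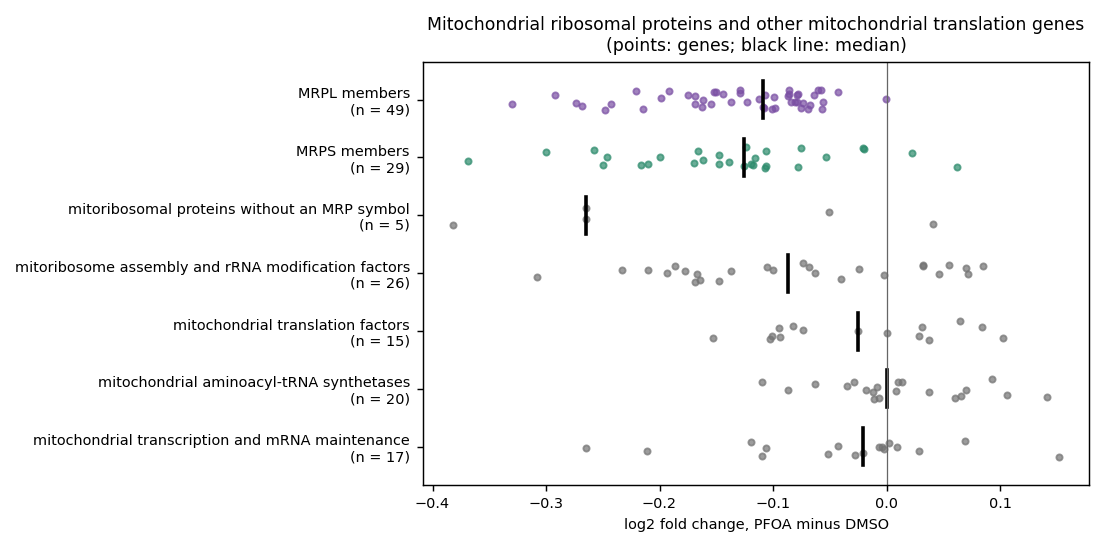
Log2 fold change (PFOA minus DMSO) of each tested gene in the Mrpl and Mrps families and in 5 lists of other mitochondrial translation genes; black lines are medians. The medians are −0.11 and −0.13 for Mrpl and Mrps genes, −0.27 for the 5 ribosomal proteins with other names and 0.00034 for the aminoacyl-tRNA synthetases.

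The lists differed in transcript length as well. The longest transcripts had a median of 3282 nt for the aminoacyl-tRNA synthetases, 2588 nt for the translation factors and 1954 nt for the assembly factors, against 1328 nt for the members. After removal of the longest-transcript trend the synthetases were at 0.011 and the 5 ribosomal proteins with other names at −0.14. Without removal of a length trend, 73 of 76 cytosolic ribosomal protein genes were lower, with a median of −0.18. So were 35 of 37 subunits of respiratory complex I, with a median of −0.16. With the longest-transcript trend removed these were 49 and 24 genes, with medians of −0.043 and −0.027. After rescaling to the same total these were 65 and 29 genes, with medians of −0.089 and −0.075. Their longest transcripts were shorter than those of the members, with medians of 925.5 and 918 nt. No difference between these families and the members was tested.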

How the data were processed

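Expression was deposited as FPKM per gene symbol and library, that is, fragments scaled by the authors for transcript length and mapped total, to 2 decimals. Per the submitters' processing notes, HISAT2 2.0.4, Bowtie2 2.2.5 and the build GRCm39 were used; which step used which tool, how fragments were counted and on which annotation is not given in the sources used here. Whole reads could not be recovered: 32.9% of 7529 low values lay within 0.15 of a whole multiple of the smallest step, where 30% of the range lies. Depth is thus unknown, and no count test was run.

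Genes with a mean of at least 1 FPKM (11876) were fitted as log2(FPKM + 1) in limma 3.58.1 under R 4.3.3, with the prior variance following the mean level, two-sided, with Benjamini-Hochberg adjustment over all of them and all 6 libraries in the fit. A fold change on this scale understates that of low genes. The members and lists were chosen with earlier results of these data known. Named genes are the 5 lowest and 3 highest log2 fold changes and the 2 highest and 2 lowest levels within Mrpl and within Mrps, genes with a set role, the 2 smallest unadjusted p-values of each context list and every ribosomal protein without an Mrp symbol; stalk members and divergent partners are named as examples. Mtrfr, of the translation factors, was not matched. Lengths (98.7% of tested genes), overlaps and shared words of 50 nt came from GENCODE M21 (GRCm38) by symbol, and start regions from RefSeq GRCm38.p6. Members with at least 20% of words or exon bases shared are called uncertain.

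On simulated data of 11876 genes, 44.0% of genes changed 1.25-fold and 1.2% of those changed 1.1-fold were called, with 4.9% of calls false. Few genes were changed, 250 at each fold over all runs. The rates depend on how many genes change, which is unknown for these libraries. The simulated noise was independent between genes. Shifts that many genes of a library share, such as those with transcript length, are therefore not in these rates. The alternatives were a pseudocount of 0.1, no filter or a mean of at least 5 FPKM, quantile and median-of-ratios scaling, no variance trend, library weights, a replicate block, removal of a trend on median transcript length, DMSO 3 as the sole control, and each library left out. Removal of a trend on the longest transcript, and rescaling to the same total, were added after the data had been seen. Deviations of same-numbered libraries had correlations of −0.107, −0.01 and −0.138, and those of differently numbered libraries −0.065 to 0.148. The labels do not say whether the numbers mark pairs, and 3 libraries per group cannot settle it. Outside the replicate block the libraries were fitted as unpaired.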

Additional observations from a re-analysis of the deposited data

How the results depend on the processing

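The count of members with an unadjusted limma p under 0.05 that were lower in PFOA was 39, beside 12.5% of tested genes. It was 24 under quantile normalization (beside 9.38%) and 24 with the median-length trend removed (8.53%). It was 15 with the longest-transcript trend removed (6.9%), 12 with every library rescaled to the same total (4.21%) and 34 with the replicate block (10.7%). When 1 library was left out it was 24 to 39, beside 8.28% to 13.5%, with 24 and 8.28% without DMSO 2. The count of those higher (0) was 2 under quantile normalization, 1 with the median-length trend removed, 3 with the longest-transcript trend removed and 2 after rescaling. Beside these stood 1362, 918, 758 and 2506 of 11876 tested genes. The median log2 fold change was −0.047 for all members, −0.043 for Mrpl and −0.055 for Mrps genes with the longest-transcript trend removed, and −0.034, −0.026 and −0.04 after rescaling. The members past the adjusted threshold numbered 0 to 5 when 1 library was left out, and 0 under every other alternative. The Mrpl median minus the Mrps median (0.018) was −0.013 to 0.013 when 1 library was left out, with −0.013 without PFOA 3, and 0.031 under quantile normalization. Some members changed direction, and not only those near 0. With DMSO 3 as the sole control 67 of 78 members were lower. Mrpl48 then moved from −0.11 to 0.136, Mrpl34 from −0.16 to 0.034 and Mrpl10 from −0.13 to 0.004. Removal of the longest-transcript trend left 55 of 78 lower. Mrpl52 then moved from −0.20 to 0.008, Mrpl34 to 0.021 and Mrps15 from −0.13 to 0.018. These and the members named next are examples. With the median-length trend removed Mrps7 was at 0.001, Mrpl39 at 0.008 and Mrpl18 at 0.004; with the longest-transcript trend removed Mrps7 was at 0.041, Mrpl39 at 0.042, Mrps36 at 0.065, Mrpl42 at 0.097 and Mrpl18 at 0.058. After rescaling Mrps7 was at 0.065, Mrpl45 at 0.008, Mrpl50 at 0.029, Mrpl58 at 0.005, Mrpl39 at 0.087, Mrps25 at 0.027, Mrpl19 at 0.036, Mrpl42 at 0.009 and Mrpl18 at 0.027. With libraries other than DMSO 1 and 2, Mrpl50 was at 0.048, Mrpl39 at 0.042 and Mrpl19 at 0.005, and Mrpl39 was at 0.049 under quantile normalization and 0.005 under median-of-ratios scaling. With 1 library left out, Mrpl19 ran from −0.079 to 0.02, Mrpl39 from −0.021 to 0.011, Mrps18b from −0.012 to 0.044 and Mrps7 from −0.058 to 0.015. The causes of these changes were not tested. The unknown depth limits what can be said of members whose interval includes 0.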
